A study of Sus scrofa with 2 samples.

Results

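The cells described here were keratinocytes of pig skin with KRT5, chosen on the summed UMIs of SERPINB2, CCL27 and CLDN4, most of which were CCL27, and they numbered 794 of the 6998 cells kept after filtering, from 9239 deposited barcodes. A cell was kept with at most 4500 genes, 30000 UMIs (unique molecular identifiers, each standing for 1 captured RNA molecule) and 10% of its UMIs on the 13 mitochondrial protein genes. These cells are called the members below, and each had KRT5 at 0.3% or more of its UMIs and at least 5 UMIs summed over SERPINB2, CCL27 and CLDN4. It also had KRT1 and KRT10 under 1% of UMIs, PTHLH and SOX9 under 3 UMIs, the collagens COL1A1, COL1A2 and COL3A1 under 1%, and TOP2A, CDK1, UBE2C and CDC20 under 5 UMIs. The members were thus chosen by the measured UMIs of 28 genes, so the values of these genes are given as a description, and they were left out of every count of genes that differ.

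Whole back skin of male farm pigs was dissociated with enzymes, dead cells were removed by fluorescence-activated or magnetic sorting, and droplet-based 3′ libraries were made from single cells. The fresh library is labelled as having had no treatment. The cryopreserved library is labelled frozen, in 90% fetal bovine serum and 10% dimethyl sulfoxide with storage in liquid nitrogen and thawing before the library was made. Both groups are otherwise the same tissue with no genetic change, the deposited preparation text describes freezing for both, and the sources used here do not say whether they came from the same animal or which sorting method each had. With 1 library per condition there is no spread between samples, so no test was made and no p-value is given. Intervals are exact 95% intervals (Poisson for levels and ratios, Clopper-Pearson for shares) and cover counting error only. In each pair of values the fresh library comes first, and square brackets hold the interval of a log2 ratio.

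KRT5, with its partner keratin 14, builds the intermediate filaments of keratinocytes that sit on the basement membrane, and KRT1 and KRT10 replace them as cells move up through the epidermis. CCL27 is a chemokine made by keratinocytes that draws T cells carrying the receptor CCR10 into the skin. SERPINB2, also called plasminogen activator inhibitor 2, blocks urokinase, and CLDN4 is a claudin, a strand protein of tight junctions.

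There were 279 fresh and 515 cryopreserved members. They were 10.1% (interval 8.96 to 11.2%) of the 2775 filtered fresh cells and 12.2% (11.2 to 13.2%) of the 4223 filtered cryopreserved cells. Among the cells that met the KRT5 and collagen clauses, 446 fresh and 928 cryopreserved, they made up 62.6% (57.9 to 67.1%) and 55.5% (52.2 to 58.7%). Nearly all remaining KRT5 cells fell into 4 groups that serve here for comparison. Other KRT5 cells, 41 and 117, met every clause except that the 3 marker genes summed to 4 UMIs or fewer. Suprabasal cells, 65 and 119, had KRT1 and KRT10 at 1% or more, PTHLH/SOX9 cells, 47 and 104, had at least 3 UMIs of those genes, and dividing cells, 13 and 65, had at least 5 UMIs of the division genes.

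Depth differed between the libraries and between these groups. The members had a median of 14976 and 9406 UMIs and 3841 and 3049 genes per cell, with 4.54% and 4.97% of UMIs on mitochondrial genes. Other KRT5 cells were shallower, with medians of 10263 and 5871 UMIs, and suprabasal cells were deeper, with 18512 and 11152. The summed profiles of the members rested on 4109444 and 5150948 UMIs, against 398361 and 764265 for the other KRT5 cells. Of the barcodes, 6 occurred in both libraries, and 0 of these belonged to a member.

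The short stretches below show where the heptamer TGANTCA, the letters of the AP-1 motif bound by FOS and JUN proteins, lay near the annotated starts of the 3 marker genes. The windows ran from 250 bases before to 50 bases after each start in the RefSeq annotation of Sscrofa11.1, each stretch is printed 5′ to 3′ on the gene's strand, and capitals mark the match. The pattern TGANTCA is its own reverse complement, so a search of either strand finds the same sites.
CCL27: tcacctgcctcTGACTCAcctgtgccccag
SERPINB2: gagtaaaatgtTGAATCActcaaaggatac
CLDN4 before the start at 11040121: ggagagaagaaTGAGTCAccccctcccccc
CLDN4 before the start at 11052281, farther match: ctccagggtcaTGACTCAggggcccagggc
CLDN4 before the start at 11052281, nearer match: gcttgtgcctcTGACTCAggagagacgctt
The CCL27 stretch lies at chr10:32138158-32138187 on the plus strand, where the first base of the match is 63 bases before the start at 32138232. The SERPINB2 stretch lies at chr1:157886515-157886544 on the minus strand, where the match begins 8 bases before the start at 157886525. For CLDN4, on the plus strand of chromosome 3, RefSeq gives 4 starts. In the stretch at chr3:11040055-11040084 the match begins 55 bases before the start at 11040121. In the stretches at chr3:11052048-11052077 and chr3:11052264-11052293, of which the second spans the start at 11052281, the matches begin 222 and 6 bases before it. The last base of the nearer match is that start itself. No match lay in the windows of the CLDN4 starts at 11039711 and 11050173. Of 20667 promoter windows of the same length, 1 per gene at its annotated gene start, 6.35% held the heptamer. At the gene start alone, CCL27 and SERPINB2 held a match and CLDN4 (11039711) did not. The CLDN4 matches lay at further starts, which were not searched for the other genes of this share. TATAAA (in 11.6% of all windows) and AACCGGTT, the grainyhead motif (in 0.102%), were not found in any window of the 3 genes on either strand, which says only that these letters are absent from these windows.

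Among the marker genes, CCL27 carried most of the signal that chose the cells. It was found in 98.6% and 98.8% of members, with a median of 29 and 25 UMIs, and it supplied 68.9% and 70.7% of the summed marker UMIs. CCL27 alone reached the threshold of 5 UMIs in 91.8% of members in both libraries. SERPINB2 was found in 62.0% and 65.8% of members with a median of 2 and 3 UMIs, and its 90th percentile was 32 and 21 UMIs. CLDN4 was found in 65.6% and 66.4% with a median of 2 UMIs in both, and with 100 and 121 UMIs in the highest cell. All 3 genes were found together in 119 fresh (42.7%) and 229 cryopreserved members (44.5%), whereas CCL27 was the single marker found in 43 and 66. Thus most members are CCL27 cells, and SERPINB2 and CLDN4 were each missing from about 1 in 3 of them at this depth.

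These shares were set against free RNA, which gives stray UMIs to any droplet. After each cell was thinned to 3000 UMIs, SERPINB2 was found in 47.7% (interval 41.6 to 53.7%) and 53.6% (49.2 to 58.0%) of members, CCL27 in 93.1% and 96.1%, and CLDN4 in 45.8% and 48.9%. Thinning left out 2 and 4 members of lower depth. In collagen-rich cells with KRT5 under 0.3% of UMIs, which should lack all 3 genes, the thinned shares were 0.402% and 0.213%, 0.905% and 1.56%, and 0.704% and 1.28%. KRT5 itself had a UMI in 7.14% and 6.83% of the thinned collagen-rich cells. These cells had median depths of 13850 and 10230 UMIs before thinning, and unthinned shares of 1.27% and 0.746%, 3.61% and 5.29%, and 2.64% and 4.14%. The members were chosen on these genes, so the difference between the groups is fixed by the rule and is given as a description.

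Cells lay on both sides of the threshold. With 4 marker UMIs, just outside, there were 3 fresh and 21 cryopreserved cells that met the other clauses, and with 5 UMIs, just inside, there were 9 and 14. A sum of 0 was found in 21 and 40 cells. The marker sum also did not single out one layer of the epidermis. At least 5 marker UMIs were present in 90.8% and 92.4% of the suprabasal cells, in 46.8% and 39.4% of the PTHLH/SOX9 cells and in 69.2% and 76.9% of the dividing cells. Altogether 370 of 446 fresh (83.0%) and 724 of 928 cryopreserved KRT5 cells (78.0%) passed the marker clause.

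As summed counts scaled to 1e+06 UMIs (CPM), SERPINB2 stood at 726 and 759 in the members, 1255 and 883 in suprabasal cells and 294 and 96.2 in PTHLH/SOX9 cells. CCL27 stood at 2838 and 3757, 3289.8 and 4464 and 509 and 336 in the same groups, and CLDN4 at 555 and 799.6, 837 and 681 and 209.9 and 318. In both libraries SERPINB2 and CCL27 were lower in the members than in suprabasal cells, and all 3 genes were higher than in PTHLH/SOX9 cells. CLDN4 was lower than in suprabasal cells in the fresh library and higher in the cryopreserved one.

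**Figure D1:**
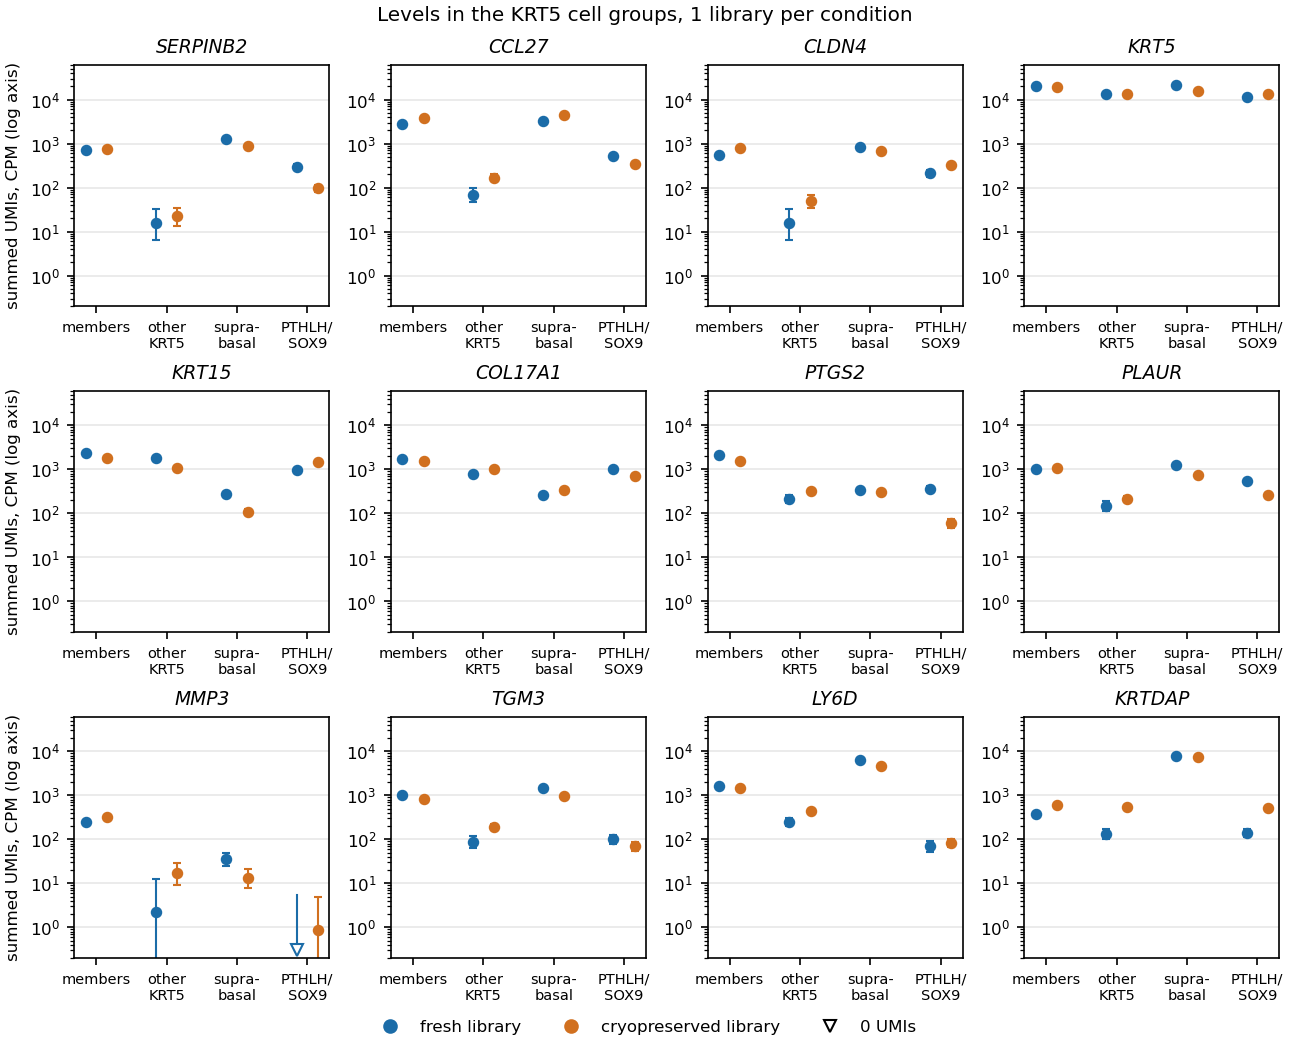
Summed UMIs in CPM on a log axis for 12 genes in 4 groups of KRT5 cells, with 1 point per library and exact 95% Poisson intervals for counting error; an open triangle marks a sum of 0 UMIs. SERPINB2, CCL27 and CLDN4 were used to choose the members, which had KRT15 and COL17A1 above the suprabasal cells, PTGS2 above every other group, and KRTDAP far below the suprabasal cells.

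The label of keratinocyte was checked against genes that define these cells. TP63, the transcription factor that keeps the basal layer, had 1206 and 963 CPM in the members, and the junction genes DSP (desmoplakin) and PERP had 1301 and 1412 and 2489.5 and 2576. KRT15, a keratin of the basal layer and the follicle, had 2359.7 and 1813 CPM and was found in 74.0% (68.4 to 79.1%) and 67.1% (62.9 to 71.2%) of thinned members, against 0.302% and 0.569% of thinned collagen-rich cells. COL17A1, a hemidesmosomal collagen that ties basal cells to the basement membrane, was found in 93.5% and 90.8% of thinned members and in 1.01% and 1.14% of thinned collagen-rich cells. KRT10 stood at 633 and 828 CPM and KRT1 at 278 and 538 under the clause that limits them. KRT5, KRT1 and KRT10 were set by the rule, so the label rests here on TP63, DSP, PERP, KRT15 and COL17A1. KRT14 and SFN were not analysed here.

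Most lists of markers of other cell types summed lower in the members than over all cells, which were scaled by total UMIs. The melanocyte list was higher in the members, against 501 and 421 CPM over all cells. The red blood cell list was lower in the fresh members (206 against 416 CPM) and higher in the cryopreserved ones (207 against 154). Of 12 fibroblast genes all were found, with a sum of 1439 and 1326 CPM, of which SPARC, a matrix protein, gave 1035 and 956. Of 10 melanocyte genes, the sum of 741 and 633 CPM came mostly from GPNMB, a transmembrane glycoprotein (637 and 548), and TYRP1, MLANA and TYR were at 0 UMIs in both libraries. Of 13 Langerhans and dendritic genes 11 matched, and CD74, the invariant chain of class II molecules, gave 1784 and 1886 of 1803 and 1904 CPM, while CD1E was at 0 in both libraries and CD207 at 0 in the fresh one. HBB, a hemoglobin chain, was at 206 CPM in both. The lists of T and NK, myeloid, mast, Merkel, mural and endothelial genes summed to between 1.40 and 130 CPM. Scrublet, which scores likely doublets, called so few of all filtered cells (3 and 35) that its calls were not used, and 0 and 7 of the called cells were members. Among the 6% of cells with the highest doublet scores there were 8 fresh (2.87%) and 14 cryopreserved members (2.72%).

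The members also lay together when none of the genes of the rule was used. In each library the KRT5 cells were thinned to 3000 UMIs and placed by 20 principal components of 2000 variable genes. Of the 15 nearest neighbours of a member, 88.0% and 82.6% were members, where members made up 63.7% and 56.5% of the cells. For the other KRT5 cells the share of neighbours that were members was 37.8% and 42.8%, and it was 28.8% and 32.3% for suprabasal cells, 33.3% and 26.1% for PTHLH/SOX9 cells and 43.1% and 32.3% for dividing cells. The cells placed included suprabasal, PTHLH/SOX9 and dividing cells, which other clauses of the rule set apart. The members' excess over their share of cells can therefore reflect those clauses as well as the markers. These shares are a description of 2 libraries, with no test.

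The first comparison asked which other genes set the members apart from KRT5 cells that met the other clauses but had 4 or fewer marker UMIs. Those cells were not free of the markers, since CCL27 had a UMI in 41.5% and 53.0% of them and CLDN4 in 14.6% and 19.7%. MMP3 (a matrix metalloproteinase), the urokinase gene PLAU and its receptor PLAUR, the prostaglandin synthase PTGS2 and the EGF receptor ligand AREG were all several times higher in the members in both libraries. MOXD1, PARM1, APCDD1 and LGALS1 were several times lower. Of 7510 genes with at least 50 UMIs over both sums in each library, 173 (2.3%) were at least 2-fold higher and 80 (1.07%) at least 2-fold lower in both libraries, a log2 ratio of 1 or more in size. With profiles scaled by total UMIs instead of trimmed-mean factors the split was 110 higher and 104 lower, and the median log2 ratio of all genes, 0.13 and 0.11, moved by -0.18 in the fresh library. The member sums were larger than the comparison sums, and requiring 1 UMI in each sum instead of 50 over both turned the split to 237 higher and 381 lower. Counting any ratio above or below 0 in both libraries, 42.8% of genes were higher and 22% lower. The members were deeper than the other KRT5 cells (above). With every cell thinned to 5000 UMIs and the marker threshold set at 2 UMIs, 197 of 4977 genes were past the fold (157 higher and 40 lower), among them 110 of the 147 that were past it before and could still be tested.

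PLAU, or urokinase, cuts plasminogen into plasmin at its receptor PLAUR, and both genes were past the fold upward. PLAU stood at 507 and 451 CPM in the members and 20.6 and 74.6 in other KRT5 cells, a log2 ratio of 4.62 [3.69 to 5.75] and 2.59 [2.23 to 2.99]. PLAUR stood at 1029.7 and 1086 against 149 and 215 CPM, a log2 ratio of 2.79 [2.44 to 3.17] and 2.33 [2.12 to 2.56]. F3, or tissue factor, which starts clotting, went the other way, with 273 and 294 CPM in the members and 942 and 1056 in other KRT5 cells (-1.79 and -1.84 on the log2 scale). Of 14 genes listed for plasminogen activation, 10 had enough UMIs, 2 were past the fold, both upward (PLAU and PLAUR), 7 were higher in both libraries, as were 42.8% of all genes, 2 were lower and 1 was of mixed sign. The list's median log2 ratios were 0.62 and 0.52, above the 0.13 and 0.11 of all genes tested, under each scaling tried. Neither gene is particular to keratinocytes here, since among thinned collagen-rich cells PLAU was found in 43.3% and 55.7% and PLAUR in 65.7% and 64.7%.

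PTGS2, AREG, EREG and ERRFI1 were also past the fold upward. PTGS2 stood at 2096 and 1564 CPM in the members and 210.4 and 318 in other KRT5 cells, a log2 ratio of 3.32 [3.02 to 3.63] and 2.30 [2.12 to 2.48]. AREG stood at 193 and 215 against 16.01 and 29.4 CPM (3.59 [2.54 to 4.91] and 2.87 [2.29 to 3.52] on the log2 scale), and after thinning it was found in 23.8% and 19.8% of members, 30.2% and 15.1% of suprabasal cells, 23.1% and 18.5% of dividing cells and 0.302% and 0.0711% of collagen-rich cells. EREG, another EGF receptor ligand, had 23.8 and 26.4 CPM in the members, and the other KRT5 cells held 2 and 0 UMIs of it. Its log2 ratio was 2.38 (interval 0.49 to 5.45) in the fresh library. With the count of 0 set to 3 UMIs, it was 7.19-fold higher in the cryopreserved one. A single fresh member held 27.4% of its UMIs. ERRFI1, which dampens EGF receptor signalling, was at 339 and 283 CPM against 165 and 139, a log2 ratio of 1.04 and 1.02. Of 13 listed EGF ligands and receptors 8 were tested, with 3 past the fold upward and 0 downward. In all 5 were higher in both libraries and 3 of mixed sign, beside 42.8% of all genes higher and 2.3% past the fold upward. The list's median was 0.66 and 0.62, and ERRFI1 falls short of the fold with total UMIs or DESeq2 size factors.

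MMP3, stromelysin 1, was uneven across cells. It stood at 251 and 318 CPM in the members, and 32 fresh (11.5%) and 75 cryopreserved members (14.6%) had a UMI of it, against 2.64% and 2.71% of collagen-rich cells. The other KRT5 cells had 1 and 14 UMIs, each time in 1 cell, giving log2 ratios of 6.78 [4.30 to 12.09] and 4.21 [3.46 to 5.09]. No single member held more than 13.5% of its UMIs. HS3ST1, a heparan sulfate sulfotransferase, had 36.8 and 27.8 CPM in the members and 1 UMI in each of the other sums, with log2 ratios of 4.01 [1.51 to 9.32] and 4.505 [2.003 to 9.82]. The low counts in the smaller group leave these ratios wide. Their lower bounds stay above 0 for counting error alone, which leaves out the spread between cells. After thinning, MMP3 was found in 9.03% of fresh members, and the interval for fresh other KRT5 cells (0%) reached 10.28%. In the cryopreserved library the intervals did not meet, with 11.55% of members (from 8.91%) and 1.01% of other KRT5 cells (to 5.50%).

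Several genes of upper epidermal layers were higher in the members as well, though KRT1 and KRT10 were kept low by the rule. LY6D, a surface protein of stratified epithelium, stood at 1606 and 1492 CPM against 249 and 437 in other KRT5 cells (2.69 [2.41 to 2.97] and 1.77 [1.62 to 1.93] on the log2 scale). TGM3, a transglutaminase that crosslinks proteins of the cornified layer, stood at 1039 and 810.0 against 89.2 and 192 CPM (3.54 [3.09 to 4.04] and 2.08 [1.85 to 2.32]), and after thinning it was found in 78.0% and 69.5% of members and in 0.302% and 0.213% of collagen-rich cells. KRT2, a late epidermal keratin, stood at 48.6 and 90.5 against 4.57 and 13.5 CPM (3.41 [1.54 to 6.47] and 2.75 [1.90 to 3.76]), with 2 UMIs in the fresh comparison group. PRDM1, a transcriptional repressor known in the upper epidermis, stood at 144 and 145 against 25.2 and 33.0 CPM (2.52 and 2.14). In contrast, SPINK5, an inhibitor of epidermal kallikreins, was lower in the members, with 31.3 and 31.0 against 144 and 166 CPM (-2.201 [-2.65 to -1.74] and -2.43 [-2.77 to -2.08]), and so was FABP5, a fatty acid carrier, with 189 and 308 against 510.1 and 707 CPM (-1.43 and -1.20). Of 18 listed suprabasal and spinous genes 10 were tested, with 4 past the fold upward (DMKN, SBSN, LY6D and KRT2), 2 downward and medians of 1.10 and 0.45. Of 36 late differentiation genes 8 were tested, with 4 past the fold upward (CERS3, SPRP, ECM1 and TGM3), 0 downward and medians of 1.27 and 0.60. In all 4 of the 8 were higher, 2 lower and 2 of mixed sign, beside 42.8% of all genes higher and 2.3% past the fold upward. With total UMIs 3 genes of each list stay past the fold upward.

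Of the basal genes, LAMA3 and ASS1 were past the fold upward. LAMA3, a chain of laminin 332 in the basement membrane, stood at 1613 and 916 CPM against 515 and 438 (1.65 [1.46 to 1.85] and 1.06 [0.91 to 1.22] on the log2 scale), and ASS1, argininosuccinate synthase, at 25.8 and 13.2 against 9.15 and 2.45 CPM, with 2 UMIs in the cryopreserved comparison group (1.497 [0.10 to 3.40] and 2.43 [0.52 to 5.51]). KRT15 differed by 0.38 and 0.74 and COL17A1 by 1.14 and 0.64, short of the fold in at least 1 library. Of 24 listed basal genes 21 were tested, 17 were higher (42.8% of all genes tested) and 2 lower in both libraries, and 2 were past the fold. Their medians were 0.73 and 0.40, and LAMA3 falls short of the fold with total UMIs or DESeq2 size factors.

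Other genes named by the rule on the largest ratios were BMP3 (a bone morphogenetic protein, 47.9 and 37.6 CPM in members), PPIF (cyclophilin D of mitochondria, 352 and 330.0), ANKRD22 (94.7 and 77.5), ENDOU (an endoribonuclease, 57.4 and 78.5), DNM1 (dynamin 1, 15.8 and 12.2) and PLEKHH1 (30.8 and 49.96). The PPIF ratio was 3.94 and 2.52 and the ANKRD22 ratio 2.79 and 2.66 on the log2 scale. Of the clade B serpins, relatives of SERPINB2, 12 were listed and 5 tested. SERPINB10, at 307 and 338 CPM against 139.5 and 169, and SERPINB7, at 12.8 and 14.6 against 4.57 and 4.89 with 2 fresh UMIs in the comparison group, were past the fold, and the medians were 1.14 and 0.95. Of all genes tested, 2.3% were past the fold upward, and SERPINB10 falls short of it with either of the other scalings. SERPINB5, or maspin, stood at 852 and 793 against 533 and 508 CPM (0.68 and 0.64). Reads shared by close paralogs such as these serpins or the keratins may have been left uncounted, so their levels carry that uncertainty.

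Inflammatory and stress genes gave a mixed picture beside other KRT5 cells. FOSL1, a FOS-related AP-1 gene, stood at 388 and 413 CPM in the members and 169 and 181 in other KRT5 cells (1.20 [0.86 to 1.55] and 1.19 [0.95 to 1.44] on the log2 scale), while EGR2, another immediate early gene, stood at 29.6 and 31.0 against 77.8 and 64.9 CPM (-1.39 [-1.96 to -0.80] and -1.07 [-1.52 to -0.59]). Of 25 immediate early genes 20 were tested, with FOSL1 past the fold upward, EGR2 and CCN2 downward, and medians of 0.34 and 0.21. CCN2 had 78.8% and 46.9% of the members' UMIs in 1 cell. CXCL2, a neutrophil chemokine, stood at 242 and 184 against 73.2 and 84.4 CPM (1.72 and 1.13), with 28.9% of its fresh UMIs in 1 member. Of 39 chemokines and cytokines 26 matched and 9 were tested, with CXCL2 and CXCL10 past the fold upward, 0 downward and medians of 0.90 and 0.17, and with total UMIs 1 of the 2 stays past it. CXCL10 was found in 1 and 3 members, so its call rests on single cells. Of 19 genes of the NF-kB response 14 were tested, with PTGS2 past the fold upward, CD83 downward and medians of opposite sign (-0.29 and 0.23). Of 13 heat shock genes tested none was past the fold. Beside these lists, 2.3% of all genes tested were past the fold upward and 1.07% downward.

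On the lower side, MOXD1, a copper monooxygenase-like gene, stood at 6.02 and 17.99 CPM in the members and 169 and 133 in other KRT5 cells, log2 ratios of -4.81 [-5.54 to -4.13] and -2.89 [-3.31 to -2.47]. APCDD1, an inhibitor of Wnt signalling, stood at 5.51 and 7.79 against 75.5 and 44.1 CPM (-3.77 and -2.50), and LGALS1, galectin 1, at 18.8 and 29.98 against 117 and 166 (-2.63 and -2.47). IGF2BP2, an RNA-binding protein, stood at 6.02 and 8.99 against 77.8 and 41.6 CPM (-3.69 and -2.21), and PARM1, a mucin-like membrane protein, at 7.02 and 12.8 against 108 and 79.5 (-3.94 and -2.64). The further genes named by the same rule, USP54, SLC66A3, CRACDL, C1QTNF12, ABI3BP, ZNF827, MAMDC2 and CCDC3, had log2 ratios between -3.33 and -1.62. MOXD1, PARM1, APCDD1, IGF2BP2 and USP54 were also among the genes lowest against PTHLH/SOX9 cells, a comparison that shares the member sums with this one. Of 10 listed class II genes 8 matched and 3 were tested, with SLA-DRA and SLA-DQB1 past the fold downward, as were 1.07% of all genes. The third, CD74, had log2 ratios of -0.27 and -0.10. SLA-DRA, at 4.26 and 9.99 against 256 and 46.5 CPM, rested on 112 and 38 UMIs in the other KRT5 cells, and SLA-DQB1, at 5.77 and 10.99 against 240.2 and 25.7, on 105 and 21. A single member held 43.5% and 40.0% of the members' SLA-DQB1 UMIs. The Langerhans and dendritic list summed to 2443 and 2107 CPM in the other KRT5 cells, against 1803 and 1904 in the members, and its part in these ratios was not tested.

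**Figure D2:**
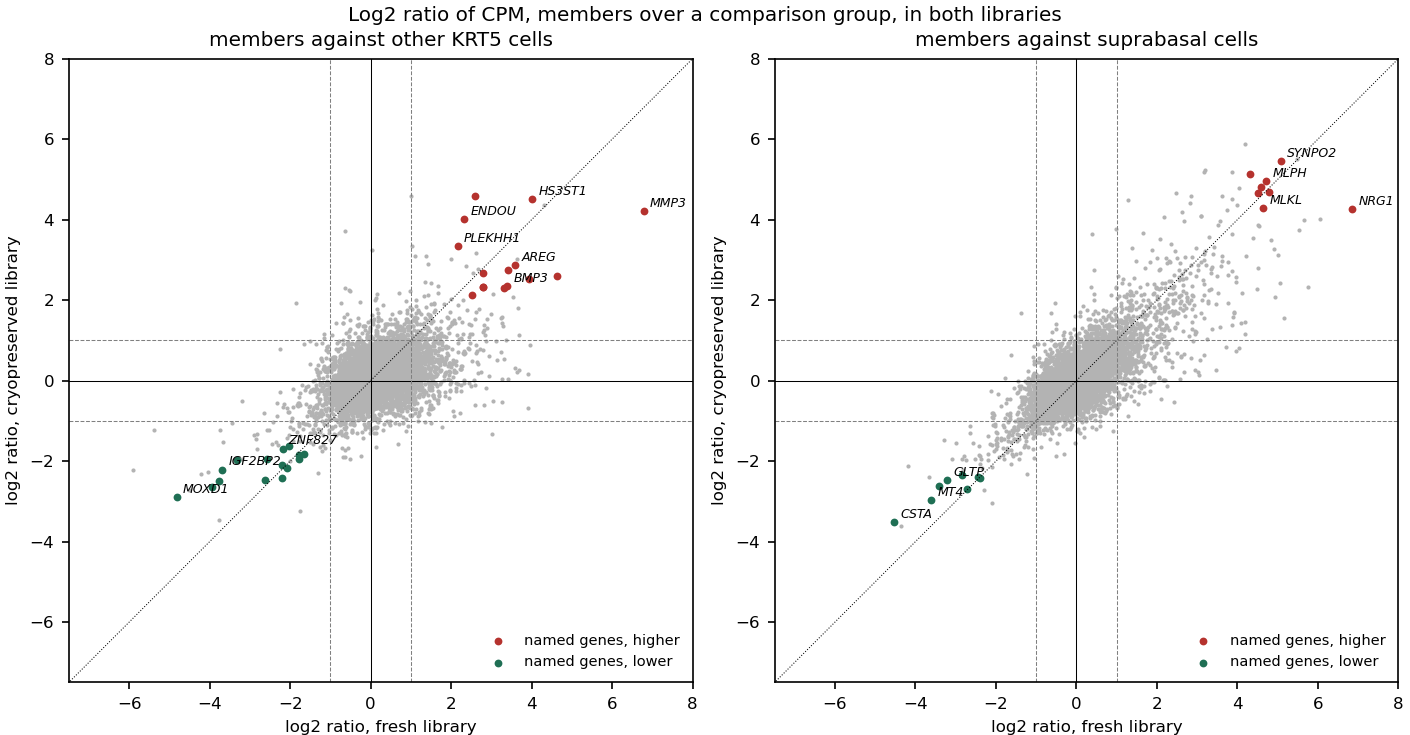
Each grey point is 1 gene, with the log2 ratio of its CPM in the members over other KRT5 cells (left) or suprabasal cells (right) in the fresh library on the horizontal and in the cryopreserved library on the vertical axis; dashed lines mark a log2 ratio of 1 in size and coloured points are the named genes. In the left panel MMP3 lies farthest to the upper right and MOXD1 is the lowest named gene, and the cloud of the right panel stretches farther along the diagonal.

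The second comparison set the members against suprabasal cells, chosen for KRT1 and KRT10. The basal genes ITGB4, COL17A1 and KRT15 and the Notch ligands DLL1 and JAG2 were several times higher in the members. Of 10 spinous genes tested, 9 were at least 2-fold lower. Of 7738 genes tested, 422 (5.45%) were at least 2-fold higher and 140 (1.81%) at least 2-fold lower in both libraries. The medians over all genes were 0.03 and 0.04, and scaling by total UMIs moved the fresh median by 0.19. Suprabasal cells were deeper than the members, and with cells thinned to 5000 UMIs 363 of 5082 genes were past the fold.

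Of the 21 basal genes tested, 20 were higher in both libraries, as were 39.5% of all genes tested, with 17 past the fold upward, 0 downward and medians of 1.98 and 1.65. ITGB4, the integrin chain of hemidesmosomes, stood at 310.3 and 296 CPM in the members and 38.3 and 40.4 in suprabasal cells (3.02 [2.55 to 3.53] and 2.87 [2.47 to 3.30] on the log2 scale). COL17A1 stood at 1699 and 1578 against 258 and 347 CPM (2.72 [2.54 to 2.91] and 2.18 [2.05 to 2.32]), and KRT15 at 2359.7 and 1813 against 278 and 107 (3.08 [2.91 to 3.26] and 4.08 [3.84 to 4.33]). CXCL14, a chemokine of resting epithelium, stood at 1464 and 1198 against 371 and 420.4 CPM (1.98 and 1.51), and POSTN, the matrix protein periostin, at 1762 and 1223 against 263 and 289.8 (2.74 and 2.08). POSTN is not particular to keratinocytes here, since it was found in 86.7% and 86.9% of thinned collagen-rich cells, beside 87.4% and 84.1% of thinned members. The exception among the listed basal genes was CCND1, cyclin D1, which was lower in both libraries at 122 and 135 against 171 and 217 CPM (-0.48 and -0.68). Fibroblast genes went the same way as the basal list. Of 12 listed 5 were tested and all 5 were higher, 3 past the fold (COL5A1, COL5A2 and DCN), with medians of 1.71 and 1.53. The part of fibroblast RNA in the basal ratios was not tested.

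NRG1, a ligand of ERBB3 and ERBB4, stood at 359 and 266 CPM in the members and had 3 and 18 UMIs in suprabasal cells, log2 ratios of 6.85 [5.30 to 9.13] and 4.25 [3.59 to 5.01]. Of 8 EGF ligands and receptors tested it alone was past the fold, with 2 of the 8 higher, 3 lower and 3 of mixed sign (AREG, EREG and EGFR). The medians were -0.31 and -0.0015. With total UMIs 4 were higher and 2 lower, and the cryopreserved median changed sign (0.068). DLL1, a Notch ligand, had 70.7 and 59.2 CPM in the members, against 0 and 3 UMIs. With the 0 set to 3 counts it was 22.8-fold higher in the fresh library, and its log2 ratio was 4.67 (interval 3.10 to 6.95) in the cryopreserved one. JAG2, another Notch ligand, had 41.4 and 54.6 CPM, against 2 UMIs in each suprabasal sum (4.32 [2.44 to 7.38] and 5.13 [3.27 to 8.19]). JAG1, a further Notch ligand, had log2 ratios of -0.18 and 0.01, of opposite sign in the libraries. On the receiving side of the pathway, NOTCH3, at 42.6 and 72.1 CPM against 109 and 158, and the Notch target HES1, at 113 and 148 against 272 and 341 (-1.26 and -1.20), were lower in the members. Of 19 listed Notch genes 14 were tested, with 3 past the fold upward (DLL1, MFNG and JAG2) and 3 downward (HES1, HES2 and NOTCH3), of which 2 stay past it downward with total UMIs. In all 6 genes were higher and 7 lower in both libraries, beside 39.5% and 34.2% of all genes tested. Past the fold were 5.45% of all genes upward and 1.81% downward. The medians of the list were -0.12 and -0.10, and the fresh one changes sign when the profiles are scaled by total UMIs.

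The further genes named upward were SYNPO2 (an actin-binding protein, 35.1 and 34.2 CPM in the members), MLPH (melanophilin, 27.1 and 24.0), RSU1 (a partner of integrin adhesions, 85.5 and 59.6), SERPINH1 (the collagen chaperone HSP47, 73.9 and 86.7) and MLKL (an effector of necroptosis, 25.8 and 15.2). In the suprabasal sums each had at most 4 UMIs. The SERPINH1 log2 ratios of 4.57 [3.01 to 6.86] and 4.80 [3.44 to 6.68] show how wide such ratios are. PTGS2 stood at 2096 and 1564 CPM against 336 and 304 (2.64 [2.48 to 2.80] and 2.36 [2.22 to 2.51]), so it was also higher in the members than in suprabasal cells. PLAU, with log2 ratios of 0.64 and 0.70, and PLAUR, with -0.30 and 0.56, were not past the fold, and the PLAUR ratios differed in sign between the libraries.

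Lower in the members were several genes known from the upper epidermis. KRTDAP, a small secreted protein of differentiating keratinocytes, stood at 375 and 611 CPM against 7660.2 and 7431 in suprabasal cells (-4.35 [-4.43 to -4.27] and -3.60 [-3.66 to -3.55] on the log2 scale). CSTA, a cysteine protease inhibitor of the cornified envelope, stood at 24.6 and 44.6 against 564 and 507 CPM (-4.52 [-4.85 to -4.21] and -3.51 [-3.73 to -3.29]), MT4, an epithelial metallothionein, at 51.1 and 63.8 against 623 and 496 (-3.61 and -2.96), and DSC1, a desmosomal cadherin, at 70.4 and 85.7 against 463 and 554 (-2.72 and -2.69). GLTP, a glycolipid carrier, SPTSSB, a subunit of the enzyme that starts sphingolipid synthesis, EPHX3, an epoxide hydrolase, and FABP5 had log2 ratios between -3.41 and -2.35. DEFB1, a beta-defensin listed under 2 gene identifiers, of which the more abundant is given, stood at 22.6 and 24.4 against 122 and 129 CPM (-2.44 and -2.40). GRHL3, a grainyhead factor of barrier formation, stood at 28.1 and 43.2 against 142 and 196 CPM (-2.34 and -2.18).

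Of the 10 spinous genes tested, 9 were past the fold downward, with medians of -2.34 and -1.94, and KRT2 was the exception, at 48.6 and 90.5 CPM in the members and 52.8 and 94.0 in suprabasal cells (-0.12 [-0.57 to 0.36] and -0.05 [-0.35 to 0.25]). Of 9 late differentiation genes tested, 5 were past the fold downward (ELOVL4, KLK8, CST6, SPRP and EVPL), 0 upward, with medians of -1.06 and -1.47, and with total UMIs 4 stay past it. TGM3 stood close to its suprabasal level, with log2 ratios of -0.46 [-0.55 to -0.37] and -0.26 [-0.35 to -0.17], whereas LY6D stood at -1.97 and -1.62. Against other KRT5 cells both genes were higher in the members, so in both libraries TGM3 and LY6D lay between those groups. The tight junction list, relatives of CLDN4 among them, held 28 genes with 9 tested, and OCLN, occludin, was the 1 past the fold, at 34.8 and 52.6 CPM against 143 and 115 (-2.04 and -1.13). Of the desmosome and adherens junction list, 19 of 23 genes were tested, 4 were past the fold downward (PERP, DSC1, DSG1 and NECTIN4) and 0 upward. Beside these lists, 1.81% of all genes tested were past the fold downward and 5.45% upward.

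**Figure D3:**
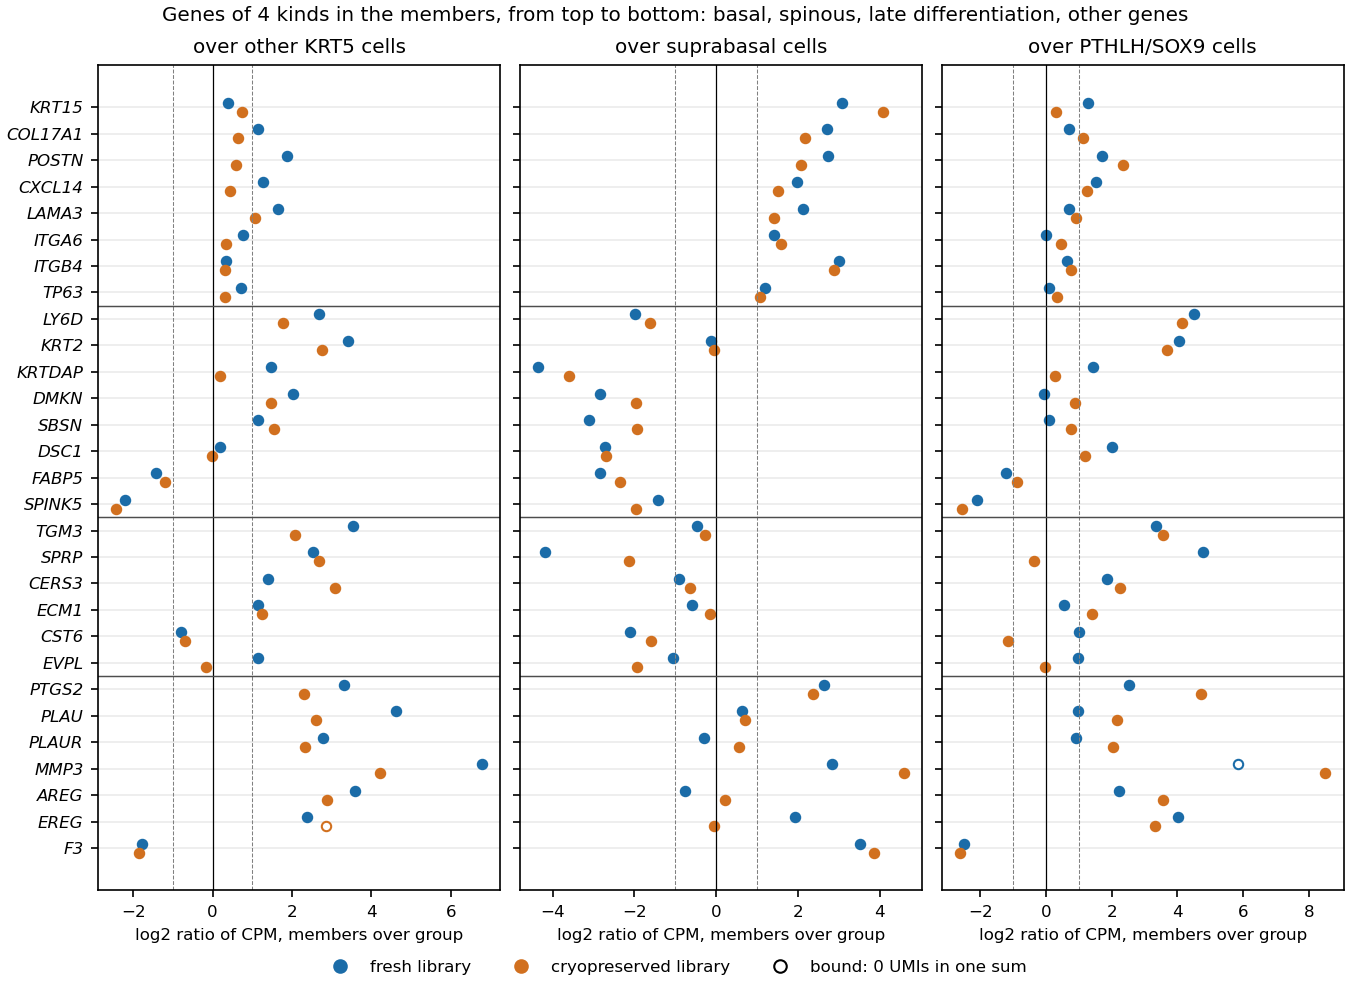
Log2 ratios of CPM, members over each comparison group, for genes of the basal, spinous and late differentiation lists and 7 other genes (from top to bottom), with 1 point per library; dashed lines mark 1 in size and open points are bounds where a sum was 0. The basal genes shown lie at or above 1.06 against suprabasal cells, and the late gene TGM3 lies above 2 against other KRT5 and PTHLH/SOX9 cells but near 0 against suprabasal cells.

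The third comparison set the members against PTHLH/SOX9 cells, whose genes are known from the hair follicle and its outer root sheath. Of 7629 genes tested, 262 (3.43%) were at least 2-fold higher and 176 (2.31%) at least 2-fold lower in the members in both libraries. The medians over all genes were 0.10 and 0.11. The member sums were larger than these comparison sums. Requiring 1 UMI in each sum, in place of the minimum over both, turned the split to 368 higher and 514 lower of 11054 genes. With DESeq2 size factors the split was 221 higher and 204 lower, and with cells thinned to 5000 UMIs it was 222 and 56 of 4726, with 137 of the 217 genes that could still be tested kept. Thinning also changed the groups, since the limits on PTHLH, SOX9 and the division genes kept their numbers of UMIs, and the PTHLH/SOX9 cells went from 47 and 104 to 14 and 43. MMP3, LY6D, the transcription factor SOX6 and PDZRN4 were higher, and MOXD1, PRICKLE2, PARM1 and THBS2 were lower.

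PDZRN4, a gene with PDZ and RING domains, stood at 1022 and 778 CPM in the members and 29.4 and 28.0 in PTHLH/SOX9 cells (5.12 [4.49 to 5.83] and 4.80 [4.30 to 5.35] on the log2 scale). SOX6 stood at 792 and 507 against 45.5 and 33.2 CPM (4.12 [3.61 to 4.68] and 3.93 [3.47 to 4.43]), and LY6D at 1606 and 1492 against 70.5 and 84.0 (4.51 [4.10 to 4.95] and 4.15 [3.86 to 4.46]). After thinning, LY6D was found in 72.6% and 68.7% of members, 6.38% and 8.82% of PTHLH/SOX9 cells and 0.503% and 0.640% of collagen-rich cells, so this gene told the groups apart in most cells. TGM3 stood at 1039 and 810.0 against 101 and 69.1 CPM (3.36 and 3.55) and WNT3, a secreted Wnt ligand, at 133 and 119 against 19.1 and 13.1 (2.80 and 3.17). MMP3 had 0 and 1 UMIs in PTHLH/SOX9 cells. With the 0 set to 3 counts it was 57.1-fold higher in the fresh members, and its log2 ratio was 8.50 (interval 6.02 to 13.8) in the cryopreserved ones. MT4, KRT2, BMP3 and C10orf90 were named by the same rule, with 51.1 and 63.8, 48.6 and 90.5, 47.9 and 37.6 and 86.0 and 57.8 CPM in the members and at most 8 UMIs in each PTHLH/SOX9 sum.

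Lower in the members, MOXD1 stood at 6.02 and 17.99 CPM against 244 and 219 (-5.34 [-6.02 to -4.72] and -3.60 [-3.97 to -3.25] on the log2 scale). PRICKLE2, of the planar polarity pathway, stood at 6.02 and 9.19 against 134 and 108 CPM (-4.47 [-5.19 to -3.81] and -3.55 [-4.07 to -3.05]), and THBS2, the matrix protein thrombospondin 2, at 6.77 and 8.39 against 60.2 and 66.5 (-3.15 and -2.99). PARM1, USP54, IGF2BP2, APCDD1 and RBMS3 had log2 ratios between -4.33 and -2.63. CCL2, a chemokine for monocytes, stood at 186 and 479 CPM in the members and 1453 and 1782 in PTHLH/SOX9 cells (-2.96 [-3.10 to -2.83] and -1.90 [-1.98 to -1.81]), and GJA1, the gap junction protein connexin 43, at 174 and 178 against 461 and 668 (-1.41 and -1.90). Of 33 listed follicle and bulge genes 13 were tested, with 3 past the fold downward (TNC, the Wnt receptor FZD7 and LGR6, a stem cell receptor). Upward there were 2 (POSTN and WNT3), beside 2.31% of all genes tested downward and 3.43% upward. In all 4 of the list were higher, 5 lower and 4 of mixed sign. FZD7 stood at 9.52 and 14.99 against 51.4 and 94.5 CPM (-2.43 and -2.66). Of 21 basal genes 15 were higher in both libraries, as were 43.8% of all genes tested, with 4 past the fold upward (ASS1, CXCL14, DLK2 and POSTN), 0 downward and medians of 0.57 and 0.46, and with either other scaling 3 stay past it.

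The members varied among themselves. Spearman's correlation across members, with each cell thinned to 3000 UMIs, was computed in each library over 277 and 511 cells for 3594 genes found in at least 10% of members. The cells of a library share its preparation and the counts per cell are low, so these values are descriptions and carry no p-value. The marker genes followed each other weakly: SERPINB2 with CCL27 at 0.298 and 0.357, SERPINB2 with CLDN4 at 0.277 and 0.216, and CCL27 with CLDN4 at 0.151 and 0.142. All 3 were used to choose the cells, and the choice itself can shift these values.

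SERPINB2 was most like ZDHHC18, a protein palmitoyltransferase (0.580 and 0.598), ANXA1, annexin A1 (0.531 and 0.573), and PLAUR (0.470 and 0.497). HBEGF, a ligand of the EGF receptor, followed at 0.473 and 0.428, and CD44, the hyaluronan receptor, at 0.407 and 0.475. In the opposite direction stood FOS, an immediate early gene (-0.447 and -0.471), and JUN, its AP-1 partner, which was looked up for that reason (-0.433 and -0.418). SERPINB2 was also opposite to the basal keratin KRT15 (-0.374 and -0.265). FOS and JUN were abundant in the members as a whole, at 1905 and 1977 and 1424 and 1059.6 CPM.

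KRT15, among the genes opposite to SERPINB2, was also set against all the other genes. It was most like CXCL14 (0.474 and 0.508), SPARC (0.417 and 0.386), and the basement membrane collagen genes COL18A1 (0.349 and 0.402) and COL17A1 (0.278 and 0.341). It was most opposite to KRTDAP (-0.369 and -0.413), and KRT10 (-0.292 and -0.398) and KRT1 (-0.276 and -0.411) were opposite too. The rule limits KRT1 and KRT10 in the members, and this choice can shift their values. CCL27, in contrast, had values near 0 with KRT15 (0.038 and 0.024). It was most like ZDHHC18 (0.439 and 0.526), ACTG1, a cytoplasmic actin (0.383 and 0.377), and PLAU (0.369 and 0.434). ANXA1 (0.328 and 0.361) and PTGS2 (0.325 and 0.371) came next. Among the genes most like CLDN4 was PLAUR (0.272 and 0.267). Across members, SERPINB2 tended to be higher where KRT15 was lower, and CCL27 showed little relation to KRT15. Both SERPINB2 and CCL27 were used to choose the cells, which can shift these values. Over all KRT5 cells, SERPINB2 had -0.282 and -0.177 with KRT15, and CCL27 had 0.089 and 0.021.

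**Figure D4:**
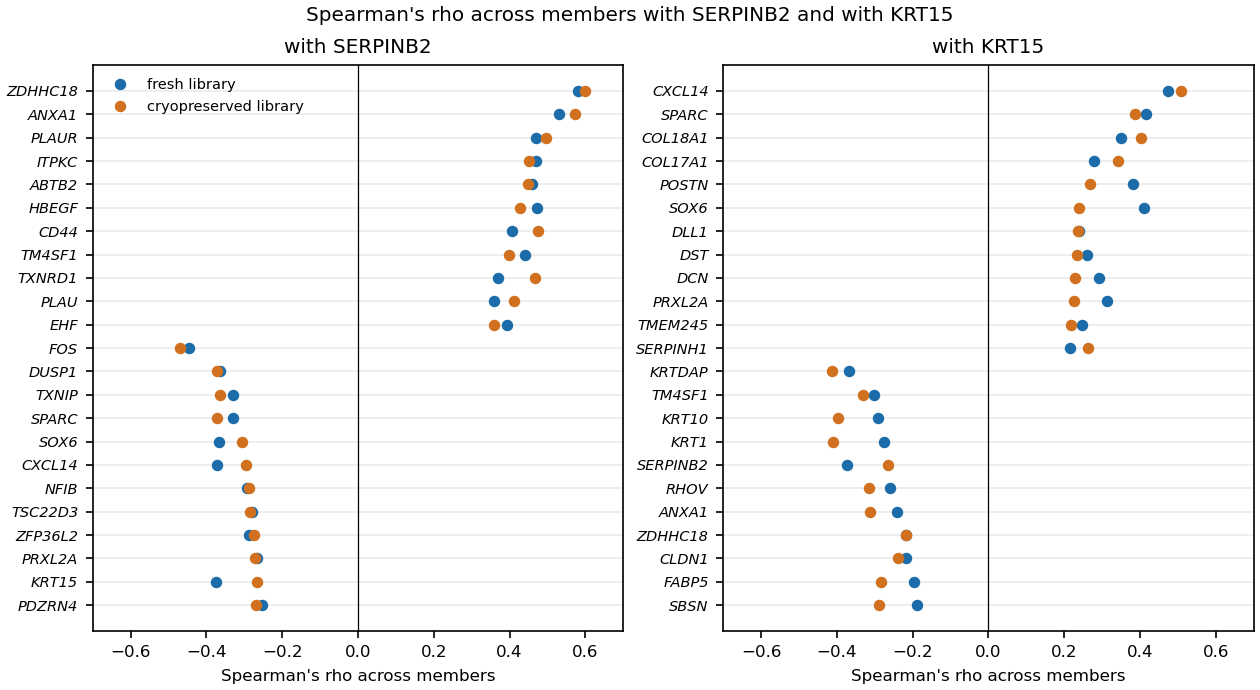
Spearman's rho across members, thinned to 3000 UMIs, of genes most alike and most opposite to SERPINB2 (left) and KRT15 (right), with 1 point per library (277 fresh and 511 cryopreserved cells). ZDHHC18 and ANXA1 lie above 0.5 with SERPINB2, FOS lies below -0.4, and SERPINB2 itself is among the genes opposite to KRT15.

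Between the libraries, the members had nearly the same profile. Of 7660 genes with at least 100 UMIs over both, 77 (1.01%) were at least 2-fold higher and 23 (0.3%) at least 2-fold lower in the cryopreserved than in the fresh members, and the median log2 ratio was 0.01. With no maxima on genes and UMIs the split was 70 higher and 54 lower, with 53 of the 100 genes kept. As each condition is 1 library, the condition, the animal if these differed, and the preparation cannot be told apart. KRT5 stood at 20794 and 19186 CPM, a log2 ratio of -0.12 [-0.13 to -0.10], cryopreserved over fresh. CCL27 stood at 2838 and 3757 (0.40 [0.37 to 0.44]), CLDN4 at 555 and 799.6 (0.53 [0.45 to 0.60]) and SERPINB2 at 726 and 759 (0.06 [-0.01 to 0.13]). Of the genes past the fold against other KRT5 cells, some were within it between the libraries, with PLAU at -0.17 [-0.26 to -0.08], PLAUR at 0.08 [0.02 to 0.14], PTGS2 at -0.42 [-0.47 to -0.38] and AREG at 0.16 [0.02 to 0.29], whereas MOXD1 (1.58 [0.92 to 2.29]), DMKN (1.07 [0.83 to 1.32]), SBSN (1.28 [1.04 to 1.53]) and CXCL10 were past it.

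Higher in the cryopreserved members, CCL2 stood at 186 and 479 CPM, a log2 ratio of 1.36 [1.24 to 1.48], and was found in 101 and 243 members. Its log2 ratios in other KRT5, suprabasal and PTHLH/SOX9 cells were 1.93, 0.09, 0.29. STMN1, stathmin, a microtubule regulator, stood at 13.5 and 40.6 CPM (1.58 [1.14 to 2.04]), and NRP2, a coreceptor of semaphorins and VEGF, at 9.78 and 26.2 (1.42 [0.90 to 1.98]). MAP11, a microtubule-associated protein, stood at 6.02 and 18.6 CPM (1.63 [0.97 to 2.34]) and was higher in the other 3 groups too, with log2 ratios of 3.004, 1.78, 3.78. KATNAL2, RBMS3, MOXD1, ARHGEF39, ISYNA1 and ARHGEF19, named by the same rule, lay between 5.01 and 23.0 CPM, with log2 ratios between 1.42 and 2.197. MOXD1, RBMS3 and CCL2 were also past the fold in PTHLH/SOX9 cells over members (above), and the cryopreserved members were shallower under the same limit of 3 UMIs of PTHLH and SOX9. The part of such cells in these ratios was not tested. Of these 10 genes, CCL2 was the 1 above 50 CPM.

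Lower in the cryopreserved members, PRMT2, a protein arginine methyltransferase, stood out. It stood at 89.5 and 8.19 CPM, with a UMI in 196 and 37 members, a log2 ratio of -3.45 [-3.95 to -2.98]. The ratio was -2.71, -2.30, -2.84 in other KRT5, suprabasal and PTHLH/SOX9 cells, so it was not limited to the members. CEMIP, which depolymerizes hyaluronan, stood at 25.1 and 8.19 CPM (-1.61 [-2.17 to -1.08]), NR3C2, the mineralocorticoid receptor, at 62.9 and 24.2 (-1.38 [-1.70 to -1.06]), and ESR1, the estrogen receptor alpha, at 17.5 and 8.39 (-1.06 [-1.65 to -0.49]). BRINP1, RCAN2, ACTN2, SRGAP1, FRAS1 and ST6GALNAC3 had log2 ratios between -1.67 and -1.02. Ratios of 2 further inflammatory genes rested on single cells. CXCL10, at 137 and 24.98 CPM, was found in 1 and 3 members, and 1 cell held 100% and 49.6% of its UMIs. IL6, at 28.1 and 8.39 CPM, had 89.3% of its fresh UMIs in 1 cell.

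Of all genes tested, 51.4% were higher and 48.6% lower in the cryopreserved members, with 1.01% past the fold upward and 0.3% downward. Of 21 basal genes tested 17 were lower and 0 past the fold, with a median of -0.29 that kept its sign under each scaling, and KRT15 had a log2 ratio of -0.38. Of 10 spinous genes 7 were higher, 2 past the fold (DMKN at 46.4 and 97.5 and SBSN at 45.6 and 111 CPM), with a median of 0.70. Of 20 listed DNA replication genes 14 were tested and 13 were higher, 2 past the fold, the origin licensing gene MCM5 and CLSPN (claspin), with a median of 0.39. Of 18 heat shock genes 13 were tested and 0 were past the fold in either direction, and of 25 immediate early genes 20 were tested and JUNB alone was past it, at 12.3 and 24.98 CPM (1.02 [0.54 to 1.53]), a call lost with DESeq2 size factors.

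**Figure D5:**
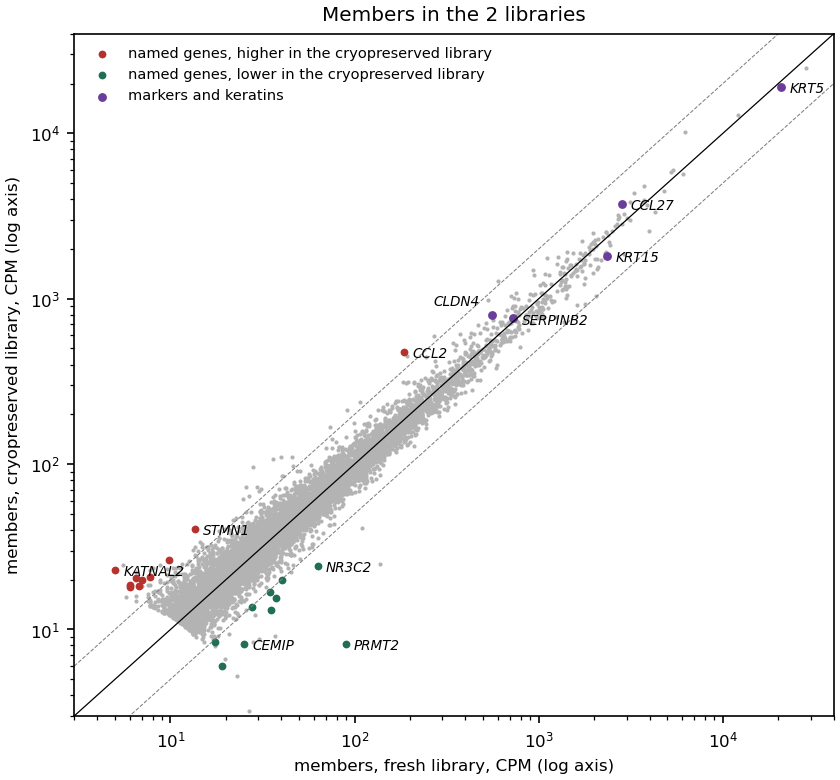
Summed CPM of each tested gene in the fresh (horizontal) and cryopreserved members (vertical), on log axes; the solid line marks equal levels, dashed lines a 2-fold difference, and coloured points the named and marker genes. Most genes lie within the dashed lines, PRMT2 lies far below them (89.5 and 8.19 CPM), and CCL2 is the most abundant named gene above them.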

How the data were processed

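Droplet-based single-cell RNA sequencing of pig skin gave 1 fresh and 1 cryopreserved library. The deposited values are whole UMI counts per gene and barcode, which the authors made with Cell Ranger 4.0.0 and STAR 2.5.1b against Sscrofa11.1, per the submitters' processing notes. No annotation of cells was used here. The filtered cells held 32274985 and 36687009 UMIs, and 0 columns belonged to other samples. The members, the 36 gene lists and the comparisons were chosen with earlier results of these data known.

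For each library, the deposited UMI counts of a group's cells were added up and scaled with trimmed-mean factors (edgeR 4.0.16, R 4.3.3), over the whole table of genes and without the 28 genes of the rule in any count of genes. A gene was past the fold at a log2 ratio of 1 in size, in both libraries where members were compared with other cells. It needed 50 UMIs over both sums in each library, or 100 over both libraries for cryopreserved against fresh members. A sum of 0 was set to 3 counts, per sum, and the ratio given as a bound. Named were the 15 highest and 15 lowest genes against other KRT5 cells by the smaller of both ratios, 8 and 8 against each other group, 10 and 10 between libraries, leaving out genes with over 20% of the members' UMIs in 1 cell, besides genes of the rule, and from each list the most abundant and those past the fold; other genes set in the text, PLAU, PLAUR and PTGS2 among them, were carried between comparisons after their values were seen. A few genes that these rules name are not reported here. The calculation was tested on simulated data with known ratios.

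Cells were thinned without replacement and their nearest neighbours found with scanpy 1.11.5, and doublets were scored with Scrublet but kept. The 14 alternatives included DESeq2 1.42.0 size factors. Promoter windows were read from the Sscrofa11.1 sequence and RefSeq annotation. Whether the libraries share an animal is not given in the sources used here.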

Additional observations from a re-analysis of the deposited data

Results flagged for a closer look

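Some genes were past 2-fold in opposite directions in the fresh and cryopreserved libraries under the same comparison. Each value below is a log2 ratio, members over the group named, with its interval in square brackets where a sum had 1 to 3 UMIs. Where a sum was 0 it was set to 3 counts and the exact lower limit is given. None of these differences between libraries was tested. Against other KRT5 cells the ratios were 1.78 [0.19 to 4.08] fresh and -1.16 cryopreserved for ASCC1, 3.02 [0.50 to 8.34] and -1.33 for LDB2, -1.85 and 1.92 for MYRFL, and 1.18 and -1.02 for BCAS3. MYRFL was found in 7 and 14 members, with 71.1% and 28.4% of its UMIs in 1 cell. Against suprabasal cells they were -1.38 and 1.68 for TLR3, a receptor of double-stranded RNA. Against PTHLH/SOX9 cells they were 1.07 and -1.47 for SETBP1, 3.66 [1.14 to 8.98] and -1.36 for LDB2, 1.70 and -2.38 for CA2 (carbonic anhydrase 2), 2.26 and -1.17 for RCAN2 and -1.01 and 1.12 for EML5. KRT79, a keratin of the follicle's upper part and sebaceous duct, had 0 UMIs in the fresh PTHLH/SOX9 cells. Its ratio there was 1.97 (exact lower limit 1.64), against -6.33 [-8.65 to -4.70] in the cryopreserved library. It was found in 2 members of each library, and 1 cell held 98.6% of its fresh UMIs. In the same comparison the ratios were -1.34 and 2.79 for ENDOU and -1.04 and 1.08 for VWA8. MRC2 also had 0 UMIs in the fresh PTHLH/SOX9 cells, a lower bound of 1.84, against -1.66.

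Barcodes outside the limits on genes, UMIs and mitochondrial share, which entered no comparison, included some that met the remaining clauses. Of 1604 fresh and 637 cryopreserved barcodes outside, these were 105 (6.55%) and 61 (9.58%), a description since the clauses themselves picked them.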

How the results depend on the processing

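No paired analysis was possible because each condition had 1 library, and for the same reason no replicate could be left out. The alternatives changed cell filters, the marker threshold, depth, scaling and the minimum of UMIs. The members' share of filtered cells moved in the fresh library to 12.8% with cells thinned to 5000 UMIs and the marker threshold at 2 UMIs, 7.75% with no mitochondrial limit and 8.36% with KRT5 at 1% or more. In the cryopreserved library it moved to 18.5% at that setting, which also left 3141 of 4223 filtered cells and 43 PTHLH/SOX9 cells instead of 104, 10.9% with at least 10 marker UMIs and 9.64% with KRT5 at 1%. The number of genes past the fold depended most on the minimum of UMIs. With 4 times the minimum it was 104 against other KRT5 cells, 252 against suprabasal, 171 against PTHLH/SOX9 cells and 22 between libraries, and with 1 UMI in each sum it was 618, 902, 882 and 1577. At that setting lower genes outnumbered higher ones against other KRT5 cells (237 higher, 381 lower) and PTHLH/SOX9 cells (368 and 514). Thinned, it was 363, 278 and 51 in the last 3 comparisons. Leaving out the cell with most UMIs of each gene gave 393 against other KRT5 cells. Without thinning, SERPINB2 was found in 62.0% and 65.8%, CCL27 in 98.6% and 98.8% and CLDN4 in 65.6% and 66.4% of members. The cause of these shifts was not tested beyond the fewer or more genes each setting admits. Of 1027 values for 82 named gene ratios under these settings, 946 moved by less than their counting interval, 81 moved by more and 0 changed direction. Of those that moved by more, 24 (of 48) were with thinned cells and 18 (of 62) with KRT5 at 1%. The smallest sum set against the members, 41 fresh other KRT5 cells, held 398361 UMIs, which limits the ratios of genes with few UMIs.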
